A study of Mus with 6 samples.

Results

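The SLC25 genes encode the mitochondrial carriers, taken here as every gene of the deposited table whose name begins with Slc25a followed by a digit. There were 33 such genes among the 10995 genes listed, and 24 of them had a mean of at least 1 FPKM over the libraries and were tested among 8816 genes. FPKM divide the reads of a gene by its transcript length and by the reads of the library. The deposited table does not name its unit, and its values were taken as FPKM because they are not whole numbers and come from a Ballgown workflow, so levels set side by side between genes rest on that reading. The 14 other protein-coding Slc25a genes that RefSeq names on GRCm38, which has 47 in all, are not listed under these names in the deposited table and were not analysed here. Naive CD4+ T cells from the spleens of WT mice were cultured for 3 days with anti-CD3 (5 μg/mL), anti-CD28 (2 μg/mL) and IL-2 (100 U/mL), so that every library comes from activated cells. Of the 6 RNA-Seq libraries, 3 came from cells that also received anti–VEGF-B (1 μg/mL), an antibody that neutralizes the growth factor, and 3 from cells that received normal goat IgG (1 μg/mL). The methods name C57BL/6 for the study's mice without tying a strain to these libraries, and the sources used here give neither the age of the mice nor whether the replicates came from separate animals, so that the p-values measure only the spread between these samples. The comparison asks which genes depend on VEGF-B during T cell activation.

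The inner mitochondrial membrane is nearly impermeable to charged metabolites, and most of the traffic across it goes through SLC25 proteins, small carriers built from a triplicated fold that swap or co-transport a solute between the cytosol and the matrix. They bring ADP and phosphate to ATP synthase and send ATP out, feed and drain the tricarboxylic acid cycle, move aspartate, glutamate, glycine and other amino acids, and import cofactors and iron. In an activated T cell, which grows and divides quickly, carriers also supply the cytosol with citrate for lipid synthesis and with aspartate for nucleotide synthesis. A few members sit elsewhere, in the peroxisome or the outer mitochondrial membrane.

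The FPKM of all listed genes lay between 262045 and 276527 in sum with anti–VEGF-B and between 260058 and 276622 with IgG, and the number of reads behind them is unknown. The median log2 fold change (log2FC, on the scale of FPKM + 1) over all tested genes was -0.15 for anti–VEGF-B against IgG, so a gene at 0 stood above the middle of the distribution. IgG replicate 2 stood apart from the rest, with the highest of the 6 values for 50.9% of tested genes, against 8.69% to 11.6% for each other library. T cell markers summed to 486 to 520 FPKM with anti–VEGF-B and 481 to 542 with IgG over the 7 of 8 markers listed. Of these 7 markers Cd3e and Cd5 fell (adjusted p of 0.0197 and 0.0343 from limma), where 23.8% of all tested genes fell, and the other 5 were not called. Neither was called lower after median centring, nor without anti–VEGF-B replicate 2 or 3 or IgG replicate 2. After median centring 2 markers rose, where 15.5% of all tested genes were higher and 9.15% lower. The markers of CD8 T cells (2 of 2 listed), B cells (1 of 5), dendritic cells (1 of 4) and NK cells (2 of 4) summed to at most 4.69 in any library and none of the 4 erythroid markers was listed. Myeloid markers (3 of 5 listed) summed to 19.8 FPKM in IgG replicate 3 and to between 3.95 and 5.11 in the other libraries, and their part in the results was not tested. In bulk RNA, fewer cells of a type and less RNA per cell cannot be told apart.

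The carriers covered a wide range of levels, and a few abundant genes made up most of their RNA. The carriers summed to 629.5, 564 and 599 FPKM with anti–VEGF-B and to 637, 557 and 568 with IgG, so the groups overlapped. The adenine nucleotide translocators Slc25a5 and Slc25a4 and the phosphate carrier Slc25a3, which together supply ATP synthase with its substrates, held 77.8% to 79.2% of this sum with anti–VEGF-B and 72.9% to 79.6% with IgG. The remaining 30 carriers summed to between 125 and 131 FPKM with anti–VEGF-B and between 130 and 151 with IgG, with 1 anti–VEGF-B library above the lowest IgG library.

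**Figure D1:**
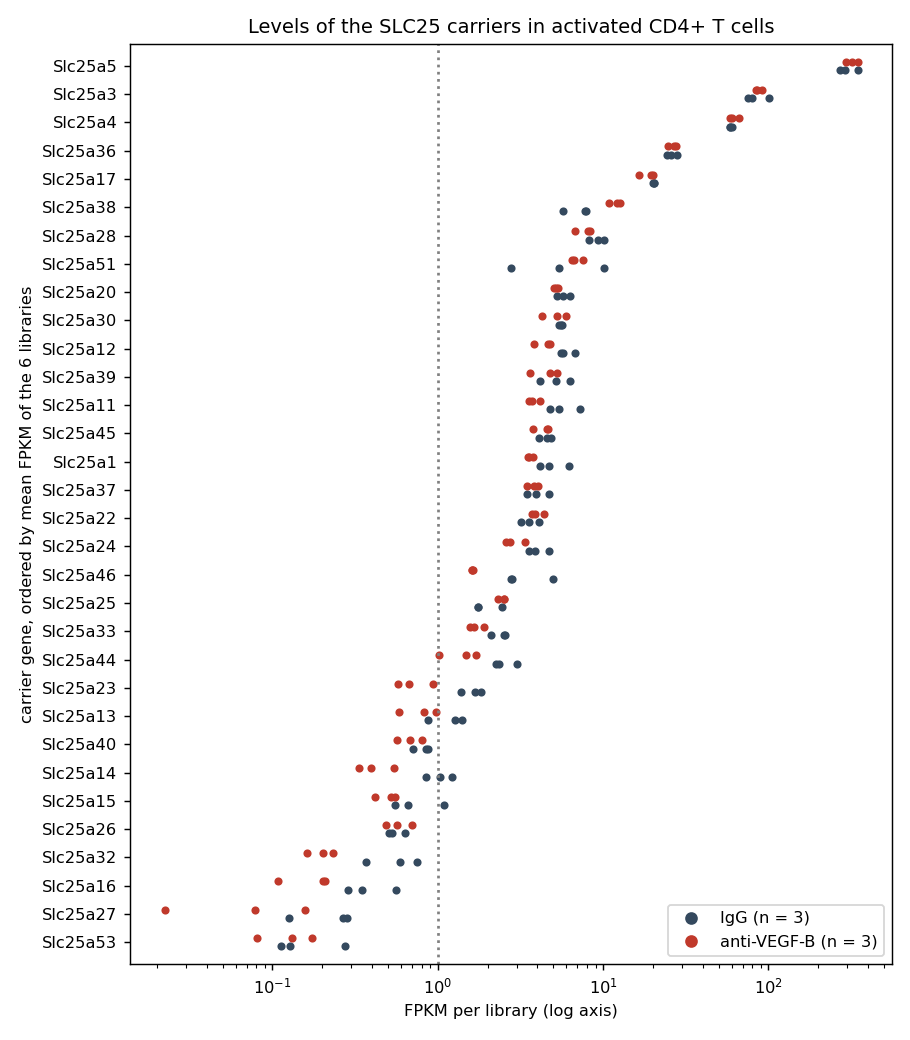
FPKM of 32 of the 33 carriers in each library on a log axis, ordered by the mean of the 6 libraries, with anti–VEGF-B in red, IgG in dark blue and the limit of 1 FPKM dotted. Slc25a5 lies far above the rest at a mean of 312 FPKM, and 9 carriers have a mean under the limit.

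Slc25a5 encodes the translocator that prevails in dividing cells. It was at 346, 296 and 320 FPKM with anti–VEGF-B and at 347, 271 and 292 with IgG. Its log2FC was 0.085 (adjusted p = 0.554 from limma), and the ranges of the groups nearly coincided. A pseudogene, Slc25a5-ps, is annotated in RefSeq, and reads could have been split between the copies, so the level is uncertain. Slc25a3 was at 85.7, 84.4 and 91.3 FPKM with anti–VEGF-B and at 102, 75.3 and 79.0 with IgG. The IgG values lay on both sides of the anti–VEGF-B values (log2FC 0.042, adjusted p = 0.788). Slc25a4, the translocator best known from heart and muscle, was at 66.55, 58.8 and 60.3 FPKM with anti–VEGF-B and at 58.4, 60.2 and 58.4 with IgG (log2FC 0.066, adjusted p = 0.512). Slc25a36, a pyrimidine nucleotide carrier, was at 26.9, 24.6 and 27.5 FPKM with anti–VEGF-B and at 24.3, 25.9 and 28.03 with IgG. Slc25a17, a peroxisomal carrier of cofactors such as coenzyme A, was at 19.4, 16.4 and 20.1 FPKM with anti–VEGF-B and at 20.05, 20.2 and 20.4 with IgG. In none of these 5 most abundant carriers did the groups separate, and the 95% intervals of the log2FC of the first 3 ran from -0.15 to 0.32 for Slc25a5, -0.21 to 0.29 for Slc25a3 and -0.099 to 0.23 for Slc25a4.

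With anti–VEGF-B, 6 of the 24 tested carriers fell and 1 rose at an adjusted p under 0.05 (limma with Benjamini-Hochberg adjustment over all tested genes). These are 25.0% and 4.17% of the tested carriers, and the shares among all tested genes were 23.8% lower and 4.87% higher, so the carriers were called about as often as other genes. The fallen genes were Slc25a46, Slc25a23, Slc25a44, Slc25a11, Slc25a12 and Slc25a24, and the risen gene was Slc25a38. At an unadjusted p under 0.05, 9 of the 24 carriers passed, as did 3806 of the 8816 tested genes. When each gene's own variance was used without moderation, none of the 7 kept an adjusted p under 0.05 (0.0732 to 0.129 from the unmoderated fit), with 8 carriers at an unadjusted p under 0.05. In that fit 0.0681% of all tested genes were lower and 0.0681% higher, and 3208 of the 8816 had an unadjusted p under 0.05. The median log2FC of the tested carriers was -0.11, against -0.15 over all genes. Of the 24, 16 (66.7%) lay under 0, as did 71.2% of all tested genes. Groups did not overlap for 8 lower carriers and 1 higher carrier, where 38.5% and 10.5% of all tested genes separated in these directions.

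**Figure D2:**
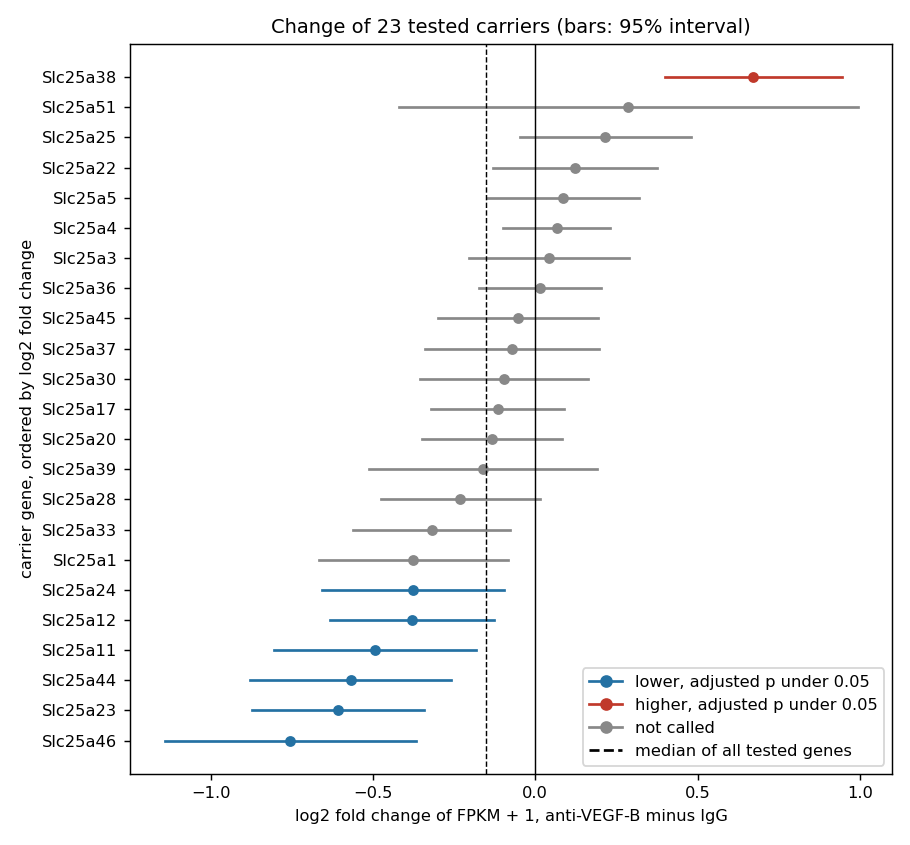
Log2 fold change of FPKM + 1 (anti–VEGF-B minus IgG) of 23 of the 24 tested carriers with the 95% interval from limma, in blue where lower and in red where higher at an adjusted p under 0.05, and in grey otherwise. The dashed line is the median of all tested genes at -0.15, and Slc25a38 at 0.67 and Slc25a46 at -0.75 form the ends of the range.

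Slc25a38 (ENSMUSG00000032519.11, GRCm38 chromosome 9, 120110374 to 120124504) encodes the carrier that brings glycine into mitochondria for the first step of heme synthesis. It was at 12.1, 10.8 and 12.6 FPKM with anti–VEGF-B and at 7.83, 5.76 and 7.75 with IgG. Every anti–VEGF-B library lay above every IgG library. The means were 11.8 ± 0.921 and 7.11 ± 1.18 FPKM (SD, n = 3 each), a ratio of 1.67, and the log2FC was 0.67 (standard error, SE, 0.121, adjusted p = 0.00837), or 0.82 above the median of all genes. It stayed under an adjusted p of 0.05 without each library in turn (log2FC 0.55 to 0.74). The iron carriers of the same pathway, Slc25a37 and Slc25a28 (mitoferrins 1 and 2), had log2FCs of -0.071 (adjusted p = 0.668) and -0.23 (adjusted p = 0.134), both with overlapping groups.

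Slc25a46 (ENSMUSG00000024259.8, chromosome 18, 31580168 to 31609902) encodes an unusual member of the outer mitochondrial membrane that acts in mitochondrial fusion, fission and cristae upkeep. It was at 1.61, 1.61 and 1.63 FPKM with anti–VEGF-B and at 2.76, 5.00 and 2.83 with IgG. The anti–VEGF-B values were nearly identical, while IgG replicate 2 was well above the other two. The means were 1.62 ± 0.00929 and 3.53 ± 1.27 FPKM (log2FC -0.75, SE 0.172, adjusted p = 0.0147 from limma). Without IgG replicate 2 the log2FC was -0.53 (adjusted p = 0.0144), and the call held without each other library as well.

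Slc25a23 and Slc25a24 encode calcium-regulated carriers that exchange ATP-Mg for phosphate and so set the adenine nucleotide content of the matrix. Slc25a23 (ENSMUSG00000046329.14, chromosome 17, 57043711 to 57059863) was at 0.577, 0.938 and 0.673 FPKM with anti–VEGF-B and at 1.39, 1.83 and 1.68 with IgG. Its groups were well apart, and its log2FC was -0.61 (SE 0.118, adjusted p = 0.00975). With a mean of 1.18 FPKM it lay just above the limit and passed it only through the IgG libraries, so that its difference was in part a condition of its being tested, and the log2FC on the scale of FPKM + 1 understates the ratio of the means, 0.447. Slc25a24 (ENSMUSG00000040322.10, chromosome 3, 109123149 to 109168457) was at 3.36, 2.75 and 2.58 FPKM with anti–VEGF-B and at 3.57, 4.74 and 3.88 with IgG. Its groups were separated by a narrow gap, and its log2FC of -0.38 was called by a small margin (adjusted p = 0.0488, with a range of 0.0419 to 0.305 under the alternative settings). Its call was lost without anti–VEGF-B replicate 2 or 3 or IgG replicate 2 or 3 (adjusted p of 0.0863 to 0.160). A further member of this subfamily, Slc25a25, had a log2FC of 0.22 (adjusted p = 0.186) with overlapping groups, and its span shares 989 bases with that of Naif1, so its value is uncertain.

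Slc25a44 (ENSMUSG00000050144.13, chromosome 3, 88410498 to 88425139), a carrier of branched-chain amino acids, was at 1.47, 1.70 and 1.02 FPKM with anti–VEGF-B and at 2.26, 3.02 and 2.35 with IgG. All anti–VEGF-B values lay under all IgG values, with means of 1.40 ± 0.344 and 2.54 ± 0.417 FPKM (log2FC -0.57, adjusted p = 0.0181). The call was lost without anti–VEGF-B replicate 3 (log2FC -0.45, adjusted p = 0.0661) and without IgG replicate 2 (-0.47, adjusted p = 0.0502).

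The malate-aspartate shuttle carries reducing equivalents from cytosolic NADH into mitochondria, and both of its tested carriers fell, where 23.8% of all tested genes did. Slc25a11, the oxoglutarate/malate carrier (ENSMUSG00000014606.14, chromosome 11, 70644196 to 70647479), was at 3.71, 4.16 and 3.54 FPKM with anti–VEGF-B and at 4.78, 7.27 and 5.44 with IgG. The groups did not overlap, and the log2FC was -0.49 (SE 0.138, adjusted p = 0.0286 from limma). Its annotated span shares 250 bases with the listed gene Rnf167, and since the sources do not state whether reads were assigned by strand, its value is uncertain to that extent. Slc25a12, an aspartate/glutamate carrier (ENSMUSG00000027010.16, chromosome 2, 71271063 to 71367749), was at 3.83, 4.77 and 4.61 FPKM with anti–VEGF-B and at 5.72, 6.76 and 5.59 with IgG. Its log2FC was -0.38 (adjusted p = 0.0350). Both calls depended on the libraries and on the scaling, and neither was made after quantile normalization (adjusted p of 0.0882 for Slc25a11 and 0.215 for Slc25a12) or median centring (0.0723 and 0.196). That of Slc25a11 was lost without anti–VEGF-B replicate 1 or 3 or IgG replicate 2 or 3 (adjusted p of 0.0507 to 0.0928), and that of Slc25a12 in each such fit except the one without IgG replicate 1 (0.0523 to 0.108).

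Slc25a13, which encodes the other aspartate/glutamate carrier, lay just under the limit with a mean of 0.988 FPKM. It was at 0.822, 0.971 and 0.581 FPKM with anti–VEGF-B and at 0.877, 1.28 and 1.40 with IgG, so that its groups overlapped. Of the 4 enzymes of the shuttle, only the cytosolic aspartate aminotransferase gene Got1 was called, where 4.87% of all tested genes were higher. It was at 116, 119 and 125 FPKM with anti–VEGF-B and at 96.5, 78.9 and 91.6 with IgG. Got1 was thus higher in every anti–VEGF-B library (log2FC 0.43, adjusted p = 0.0111 from limma, with a range of 0.0102 to 0.0799 under the alternative settings). Got2, Mdh1 and Mdh2 had log2FCs of -0.071, 0.12 and 0.12 (adjusted p of 0.531, 0.288 and 0.227).

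**Figure D3:**
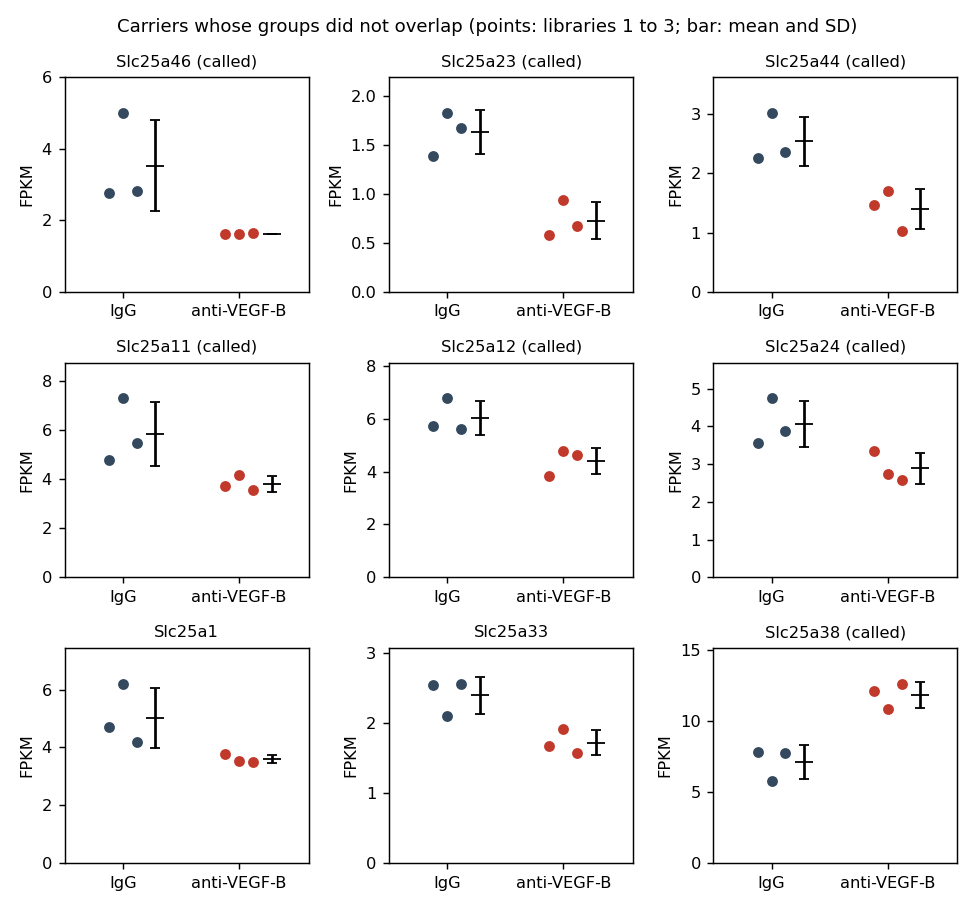
FPKM in each library (points, replicates 1 to 3 from left to right) and the mean with its SD (bar) for the 9 tested carriers whose groups did not overlap, each on its own axis from 0. IgG replicate 2 is the highest point in each of the 6 carriers called lower, and Slc25a38 is the only panel with anti–VEGF-B above IgG.

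Slc25a1 and Slc25a33 had groups that did not overlap without passing the test. Slc25a1, the citrate carrier that supplies the cytosol with the precursor of fatty acids and sterols, was at 3.76, 3.54 and 3.51 FPKM with anti–VEGF-B and at 4.72, 6.19 and 4.18 with IgG (log2FC -0.38, adjusted p = 0.0551). It passed without IgG replicate 3 (-0.48, adjusted p = 0.0398), and the alternative settings gave 0.0398 to 0.294. Slc25a33, a pyrimidine nucleotide carrier of mitochondria, was at 1.67, 1.91 and 1.57 FPKM with anti–VEGF-B and at 2.53, 2.09 and 2.55 with IgG (log2FC -0.32, adjusted p = 0.0519). IgG replicate 2 was the lowest IgG value here, and without it the adjusted p was 0.0428, with a range of 0.0428 to 0.624 under the alternative settings.

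IgG replicate 2 had the highest value of all libraries in 12 of the 24 tested carriers and in each of the 6 that fell, as it had in 84.99% of all genes called lower. Without this library 3 carriers were called lower, Slc25a46, Slc25a23 and Slc25a33, and Slc25a38 was called higher, while 12.5% of all tested genes were lower and 2.93% higher. Without anti–VEGF-B replicate 3, Slc25a46 and Slc25a23 were called lower and Slc25a38 higher, while 7.88% of all genes were lower and 1.86% higher. Slc25a38, Slc25a46 and Slc25a23 were the carriers called in each of the 6 fits that left out 1 library. Each of these fits kept the filter on the mean of all 6 libraries, which Slc25a23 passed only through the IgG libraries.

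The number of carriers called lower changed with the scaling between libraries, among other choices. Quantile normalization brought the median of all genes to 0.0077, with 10.4% of genes lower and 9.98% higher, and gave 2 lower carriers (Slc25a46, -0.52, and Slc25a23, -0.39) and 3 higher ones (Slc25a38, 0.84; Slc25a25, 0.45; and Slc25a22, 0.34). Slc25a22 encodes a glutamate carrier. Median centring brought the median of all genes to 0.049, with 9.15% of genes lower and 15.5% higher, and gave 3 lower carriers, with Slc25a44 (-0.37) added, and 4 higher ones, with Slc25a4 (0.27) added. Slc25a11, Slc25a12 and Slc25a24 remained under 0 but were not called under either scaling (adjusted p of 0.0723 to 0.305). The median of the tested carriers was 0.055 after quantile normalization and 0.095 after median centring, so its sign changed with the scaling. On the values as deposited it was 0.014 over the 11 carriers with a mean of at least 5 FPKM.

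**Figure D4:**
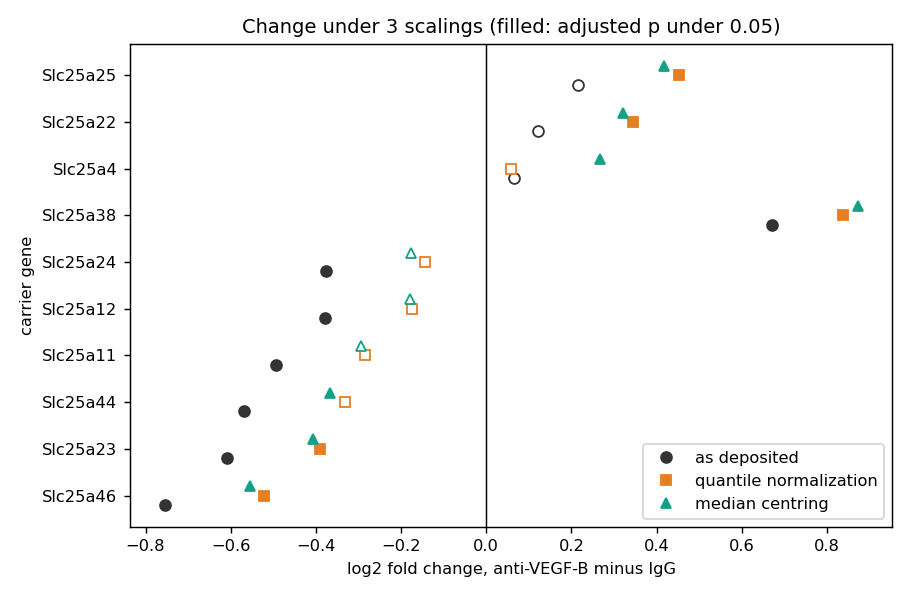
Log2 fold change (anti–VEGF-B minus IgG) of the 7 called carriers and of the 3 carriers called only after rescaling, on the values as deposited (circles), after quantile normalization (squares) and after median centring (triangles), filled where the adjusted p was under 0.05. Slc25a38, Slc25a46 and Slc25a23 are filled under all 3 scalings, and Slc25a23 passed the filter only through the IgG libraries.

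By role, 2 of 11 tested carriers of nucleotides, phosphate and cofactors fell (Slc25a23 and Slc25a24), where 23.8% of all tested genes were lower and 4.87% higher. Of the 5 tested carriers of amino acids and glutathione, 2 fell (Slc25a12 and Slc25a44) and 1 rose (Slc25a38). Among the carboxylate and acylcarnitine carriers 1 of 3 fell (Slc25a11), and the carnitine/acylcarnitine carrier Slc25a20, which brings long-chain fatty acids in for oxidation, had a log2FC of -0.13 (adjusted p = 0.311). Slc25a30, related to the uncoupling proteins, had -0.096 (adjusted p = 0.542). Slc25a39, a glutathione carrier, had -0.16 (adjusted p = 0.448) and Slc25a45 had -0.053 (adjusted p = 0.731). The last was grouped with Slc25a46, so that 1 of 2 tested carriers of the outer membrane or without an agreed substrate fell. Each of these groups is small, and no difference between them was tested.

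Slc25a51, the carrier that brings NAD+ into mitochondria, had the largest SE of the tested carriers. It was at 7.54, 6.67 and 6.48 FPKM with anti–VEGF-B and at 2.75, 10.2 and 5.41 with IgG. The IgG values spanned the whole anti–VEGF-B range, and the log2FC of 0.29 had an SE of 0.314 (adjusted p = 0.505).

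The 6 carriers that fell had means between 1.18 and 5.22 FPKM. At a mean of at least 20 FPKM, none of 4 carriers was called by limma or had an unadjusted p under 0.05, at 5 to 20 FPKM 1 of 7 fell and 1 rose, and at 1 to 5 FPKM 5 of 13 fell. The last 5 include Slc25a23, which passed the limit only through the IgG libraries. The corresponding shares of all genes were 14.7%, 24.8% and 27.3% called lower and 12.4%, 4.05% and 1.98% called higher. The medians of all genes were 0.0063, -0.14 and -0.22, beside 0.054, -0.12 and -0.32 for the carriers. Across the 24 carriers Spearman's rho between mean FPKM and log2FC was 0.51, and across all 8816 tested genes it was 0.28. These are descriptions across genes that share the same 6 libraries.

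The 9 carriers with a mean under 1 FPKM were Slc25a13, Slc25a40, Slc25a14, Slc25a15, Slc25a26, Slc25a32, Slc25a16, Slc25a27 and Slc25a53. When all listed genes were fitted, 20.6% of genes were called lower and 3.75% higher, and Slc25a14 and Slc25a32 were the carriers called among these 9. Slc25a14, which belongs to the branch of the uncoupling proteins, was at 0.334, 0.542 and 0.393 FPKM with anti–VEGF-B and at 1.03, 1.21 and 0.855 with IgG (log2FC -0.51, adjusted p = 0.0136). Slc25a32, which imports folate and is also linked to the cofactor FAD, was at 0.203, 0.233 and 0.161 FPKM with anti–VEGF-B and at 0.369, 0.748 and 0.591 with IgG (log2FC -0.38, adjusted p = 0.0269). Both were lower in every anti–VEGF-B library, at levels where the precision from read counting is unknown. The ornithine carrier Slc25a15 (adjusted p = 0.168) and Slc25a16 (adjusted p = 0.0706) also had groups that did not overlap, with anti–VEGF-B lower. These 4 are 44.4% of the 9 carriers. Of all genes with a mean under 1 FPKM, 37.7% separated in this direction and 2.39% in the other. For Slc25a13, Slc25a26, which imports S-adenosylmethionine, Slc25a27, a relative of the uncoupling proteins, Slc25a40, linked to glutathione import, and Slc25a53 the groups overlapped, and the adjusted p ran from 0.121 to 0.850. The span of Slc25a53 shares 6094 bases with that of Zcchc18 and the span of Slc25a26 shares 144 with that of Lrig1, so these values are uncertain.

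Carriers are made in the cytosol, enter through the outer-membrane TOM complex, are escorted by small TIM chaperones and are inserted by the TIM22 complex. Of the 16 listed genes of this route 15 were tested, and 1 fell and none rose in limma, with 5 at an unadjusted p under 0.05. The share that fell was 6.67%, against 23.8% lower and 4.87% higher among all tested genes. Of all 8816 tested genes, 3806 had an unadjusted p under 0.05. The gene that fell, Timm22, encodes the channel of the insertion complex. It was at 1.13, 0.641 and 1.18 FPKM with anti–VEGF-B and at 2.04, 2.28 and 1.87 with IgG (log2FC -0.64, adjusted p = 0.0115). Its anti–VEGF-B mean of 0.982 FPKM lay under the limit, so it was tested only through the IgG libraries and its difference was in part a condition of that. Quantile normalization gave an adjusted p of 0.0577, within 0.0138 to 0.0826 under all alternative settings. The median of the 15 genes was -0.023, against -0.15 over all genes.

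Among 14 tested genes of other inner-membrane transport, 1 fell and 2 rose, or 7.14% and 14.3%, against 23.8% and 4.87% of all tested genes. Sfxn1, a mitochondrial serine transporter, was at 0.993, 0.846 and 0.801 FPKM with anti–VEGF-B and at 1.59, 2.21 and 1.65 with IgG (log2FC -0.58, adjusted p = 0.0107 from limma, with a range of 0.0105 to 0.0732 under the alternative settings). It too was tested only through the IgG libraries, with an anti–VEGF-B mean of 0.880 FPKM. Mcub, a subunit that dampens the calcium uniporter, was higher with anti–VEGF-B (32.4 ± 0.902 against 26.9 ± 1.49 FPKM, log2FC 0.26, adjusted p = 0.0308), and so was Tmem65 (0.32, adjusted p = 0.0416). Both Mcub and Tmem65 lost the call in 5 of the 6 fits that left out a library, with adjusted p of up to 0.107 and 0.148. Of the outer-membrane channels, Vdac1 rose from 504 ± 26.1 to 611 ± 48.2 FPKM (log2FC 0.28, adjusted p = 0.0392, with a range of 0.0162 to 0.148 under the alternative settings). Its call was lost after quantile normalization and in 5 of the 6 fits without a library. Vdac2 and Vdac3 were not called (adjusted p of 0.236 and 0.440). After median centring all 3 channels were called higher, where 15.5% of all tested genes were higher and 9.15% lower. The carriers that bear other symbols, Ucp2 (log2FC -0.31, adjusted p = 0.0844), Mtch1 (-0.14, adjusted p = 0.381) and Mtch2 (0.026, adjusted p = 0.856), were not called by limma. Of these 3, 1 had an unadjusted p under 0.05, as had 3806 of the 8816 tested genes.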

How the data were processed

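RNA was measured in 6 libraries of activated CD4+ T cells, 3 per treatment. The authors aligned stranded reads to GRCm38 with hisat2, used StringTie and Ballgown for transcript levels, and deposited 1 value per protein-coding gene and library. The unit is not named in the table and the methods mention raw counts, but the values are not whole numbers, and the deposited values were therefore taken as FPKM, with no step between libraries stated. At most 0.935% of genes under 0.3 FPKM shared a ratio between a pair of libraries, so reads were not recovered and depth is unknown.

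Genes whose 6 values averaged 1 FPKM or more were tested on log2(FPKM + 1) by limma 3.58.1 in R 4.3.3 (empirical Bayes with trend, no covariate), with a call at an adjusted p under 0.05 (Benjamini-Hochberg over all tested genes, two-sided). Alternatives changed the scaling, pseudocount, filter, moderation, replicate block and libraries.

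The members, the lists of related genes and the tests were chosen with earlier results of these data known. The carriers are named except 1, which is in the counts and medians but not reported here, with library values for called genes, the 5 most abundant and those next to the limit, and related genes where called. Got2, Mdh1, Mdh2, Vdac2, Vdac3, Ucp2, Mtch1, Mtch2 and the library values of other carriers, and the classes by level, were added after the values were seen. No sequences were used.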

Additional observations from a re-analysis of the deposited data

How the results depend on the processing

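The numbers of genes called lower (2099) and higher (429) became 913 and 880 under quantile normalization, 807 and 1365 under median centring, and 6 and 6 with no moderation of the variance, and 989 genes were lower at a mean of at least 5 FPKM. Leaving out 1 library at a time gave 695 to 2071 lower and 164 to 396 higher genes. For the carriers, 2 were lower and 3 higher under quantile normalization, 3 and 4 under median centring, and 1 lower at a mean of at least 5 FPKM (11 carriers tested). In limma without moderation 0 carriers were lower and 0 higher. There 8 carriers had an unadjusted p under 0.05, as had 3208 of the 8816 tested genes. Without 1 library, 2 to 6 carriers were lower and 1 to 1 higher, and the median log2 fold change ran from -0.16 to -0.079. That median was 0.055 after quantile normalization, 0.095 after median centring and 0.014 at a mean of at least 5 FPKM. For the 7 called carriers, 55 values under the alternatives kept the call and 31 lost it. None changed sign, but their groups did not overlap, so only quantile normalization and median centring could have changed it.

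The carriers given by name that changed sign had not been called. After quantile normalization they were Slc25a20 (0.068), Slc25a30 (0.11), Slc25a39 (0.051), Slc25a45 (0.16) and Slc25a37 (0.14). After median centring they were Slc25a17 (0.085), Slc25a20 (0.068), Slc25a30 (0.10), Slc25a39 (0.039), Slc25a45 (0.15) and Slc25a37 (0.13). Over the fits without 1 library, Slc25a3 ran from -0.041 to 0.17, Slc25a36 from -0.035 to 0.066, Slc25a51 from -0.10 to 0.68, Slc25a30 from -0.19 to 0.010, Slc25a45 from -0.11 to 0.023 and Slc25a37 from -0.16 to 0.025. Median centring moved the log2FC of every tested gene by the same amount, and the median of all genes went from -0.15 to 0.049. The cause of the other sign changes was not tested.

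Of the import genes, 0 were lower after quantile normalization, at a mean of at least 5 FPKM and without moderation, 1 was higher under quantile normalization and 2 under median centring, and 1 to 2 were lower without 1 library. Of other inner-membrane transport, 2 were lower with no filter, 0 at a mean of at least 5 FPKM, and 0 lower and 0 higher without moderation. Without 1 library, 1 to 2 were lower and 0 to 1 higher. Of the shuttle enzymes, 3 were higher after median centring and 0 without moderation. Among all tested genes, 9.15% were lower and 15.5% higher after median centring, and 10.4% and 9.98% after quantile normalization. Without moderation the share was 0.0681% in each direction.

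The libraries share replicate numbers, and same-numbered deviations correlated at -0.030, 0.11 and 0.089. Deviations with unlike numbers correlated at -0.175 to 0.0997. The sources do not say whether the numbers pair the samples, and these values cannot decide it. With the replicate number as a block, 2109 genes were lower and 469 higher, 5 carriers lower and 1 higher, and 2 import genes lower. Slc25a24 was not called there (adjusted p = 0.0668 from limma). The groups of 3 allow no test for a distant sample, and depth is unknown, so the precision of low FPKM cannot be given.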
